A study of Mus musculus with 16 samples.

Results

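The data described here are the trimethylation of histone H3 at lysine 9 (H3K9me3) in normal small intestinal crypts of mice, measured by chromatin immunoprecipitation with sequencing (ChIP-seq). All 212313 H3K9me3 peaks of the series were taken, of 259378 peaks and regions deposited for both marks, and levels come from 4 of the 16 libraries. The H3K9me2 regions of the series were used for their positions alone. The 4 libraries are 3 made with an H3K9me3 antibody (ab8898) from male wild type (WT) C57BL/6 mice, called WT1, WT2 and WT3, and 1 WT input. The input is sonicated chromatin taken without antibody. The material was an unsorted suspension of whole crypts, fixed with formaldehyde, so a level is an average over all cells in it. The study also holds mice with a Vil-Cre mediated KO of Smarcad1, and no value of those libraries is given below, although they shared in the peak calls and in the scaling of the deposited values.

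H3K9me3 is a mark of silent chromatin that is read by HP1 proteins. SETDB1 places it over retrotransposons, zinc finger gene clusters and imprinted control regions after recruitment by KRAB zinc finger proteins and TRIM28, and SUV39H enzymes place it over the repeats around centromeres. At imprinted control regions the zinc finger protein ZFP57 binds the methylated hexamer TGCCGC.

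Sequences of 3 regions are given because they represent a zinc finger gene, an imprinted gene and the peak with the lowest level over input. They were read from GRCm38 on the plus strand. The first is the middle 300 bases of the Zfp873 peak, chr10:82061176-82061475. The second is the stretch of the Mest peak that is densest in TGCCGC, chr6:30738098-30738397, chosen after its values were seen. The third is the middle of the Mt1 peak, chr8:94179751-94180050. Capitals mark CG dinucleotides in Zfp873 and Mt1, and in Mest they mark TGCCGC or its reverse complement GCGGCA.
Zfp873: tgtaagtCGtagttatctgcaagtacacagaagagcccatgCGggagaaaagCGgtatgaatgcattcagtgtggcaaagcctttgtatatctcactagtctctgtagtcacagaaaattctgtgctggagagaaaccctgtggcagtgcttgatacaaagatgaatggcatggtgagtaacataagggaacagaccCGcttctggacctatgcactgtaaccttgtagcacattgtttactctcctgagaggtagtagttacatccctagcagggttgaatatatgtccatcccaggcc
Mest: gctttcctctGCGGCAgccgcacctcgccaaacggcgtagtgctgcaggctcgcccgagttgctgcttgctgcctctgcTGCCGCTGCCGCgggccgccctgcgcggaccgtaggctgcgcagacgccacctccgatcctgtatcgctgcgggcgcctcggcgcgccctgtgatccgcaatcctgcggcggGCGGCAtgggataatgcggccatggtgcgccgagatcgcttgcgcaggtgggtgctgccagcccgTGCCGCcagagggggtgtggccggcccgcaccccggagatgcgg
Mt1: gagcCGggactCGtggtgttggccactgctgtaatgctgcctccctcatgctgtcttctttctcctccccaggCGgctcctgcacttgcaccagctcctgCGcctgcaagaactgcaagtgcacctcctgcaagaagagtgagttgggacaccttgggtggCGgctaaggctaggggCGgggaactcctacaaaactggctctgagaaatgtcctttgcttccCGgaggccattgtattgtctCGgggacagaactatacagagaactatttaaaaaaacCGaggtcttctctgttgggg

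The Zfp873 stretch holds 4 CG dinucleotides, the Mt1 stretch 9 and the Mest stretch 38. The Mest stretch, chosen for its matches, holds 5. Each peak overlaps its gene, and exons make up 17.2% of the bases of the Zfp873 peak, 22.3% of the Mest peak and 78.5% of the Mt1 peak. Over all peaks, 1.55% have a match on either strand in their central 300 bases.

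Reads inside peaks numbered 11316379 in WT1, 9724852 in WT2, 11506446 in WT3 and 8838386 in the input. The level of a peak is given as the log2 ChIP value minus the log2 input value, from which the median over all peaks is subtracted, so that 0 is the median peak and 1 is a 2-fold higher ratio of ChIP to input. Peaks were called on WT and KO libraries together, so a peak alone is no evidence of the mark in WT, and only the difference from the median peak was tested. Read counts above 428 in WT1, 340 in WT2 and 379 in WT3 were extrapolated. There is a single input, which the test takes to vary like the ChIP libraries. The median SD of the 3 WT values of a peak was 0.21, and counting alone gives the input a median SD of 0.26, so p-values may understate the error of the input. Peaks with few input reads had high ratios, with a mean of the 3 library medians of 1.76 under 5 input reads and -0.09 at 40 to 79, and values for peaks with at least 40 input reads are therefore given for the main classes.

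Most peaks differed little from one another. The middle of the distribution, from the 25th to the 75th percentile, ran from -0.22 to 0.28, and the 99th percentile was 1.75. Of all peaks, 8173 were higher than the median peak (3.85%) and 156 were lower (0.0735%) at an adjusted p under 0.05 (limma, Benjamini-Hochberg). These counts depended on the test, with 1236 and 4 without a trend of the spread on the level, 38890 and 25938 with the input taken as free of error, and 580 lower peaks without WT2. A further demand of at least a 2-fold difference in each of the 3 WT libraries left 3733 higher peaks (1.76%). Higher peaks covered 28.2 Mb, with a median width of 2100 bp.

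Higher peaks were richer in repeats and in CG dinucleotides than peaks at large. The median share of bases masked as repeats was 60.1% in higher peaks and 35.2% in all peaks, and CG density was 11.5 per kb in higher peaks, 6.61 per kb in all peaks and 8.26 per kb in the genome. Both features joined in the class with at least 20 CG per kb and at least 60% repeats, where 1233 of 4561 peaks were higher (27.0%) and the library medians were 0.98 in WT1, 0.73 in WT2 and 0.86 in WT3. At 40 or more input reads 109 of 183 were higher (59.6%), with a median of 0.80. Over all peaks the shares were 3.85%, and 4.79% at that depth. With as many CG but under 30% repeats, 208 of 1859 peaks were higher (11.2%), with a mean of library medians of 0.27. At 40 or more input reads 100 of 390 of these were higher (25.6%), with a median of 0.21. Correction for GC content subtracts the median level of peaks with like GC content. It lowers classes of GC-rich peaks whether their level comes from the mark or from a bias, so it cannot separate the 2. The correction took the median of the repeat-rich class to 0.50, from a mean of library medians of 0.85, and that of the repeat-poor class to -0.07. With under 5 CG per kb and at least 60% repeats, 549 of 23527 were higher (2.33%). Repeats were read from the soft-masked genome without their family names.

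The widest peaks stood above the rest. Among peaks of at least 20 kb, 138 of 201 were higher (68.7%), with a mean of library medians of 0.46 ± 0.06 (SD, n = 3) that became 0.22 after correction for GC content. The share was 336 of 1435 (23.4%) from 10 to 20 kb and 2152 of 78309 (2.75%) from 1 to 2 kb. Level did not rise steadily with width, since peaks under 1 kb, with a median of 14 input reads, stood at 0.15 and those of 10 to 20 kb at 0.14. Wide peaks hold more reads, so the same difference is more readily called in them. The hexamer TGCCGC was present in 8.13% of all peaks and 28.6% of higher peaks, and in their central 300 bases in 1.55% and 4.74%. Higher peaks were also wider, with a median of 2100 bp against 1350 bp, and their median GC content was 43.9% against 39.6%. Peaks with 1, 2 and 3 or more matches had means of library medians of 0.14, 0.26 and 0.49. Correction for GC content took their medians to 0.05, 0.11 and 0.27. The part of width and GC content in these shares was not tested.

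**Figure D1:**
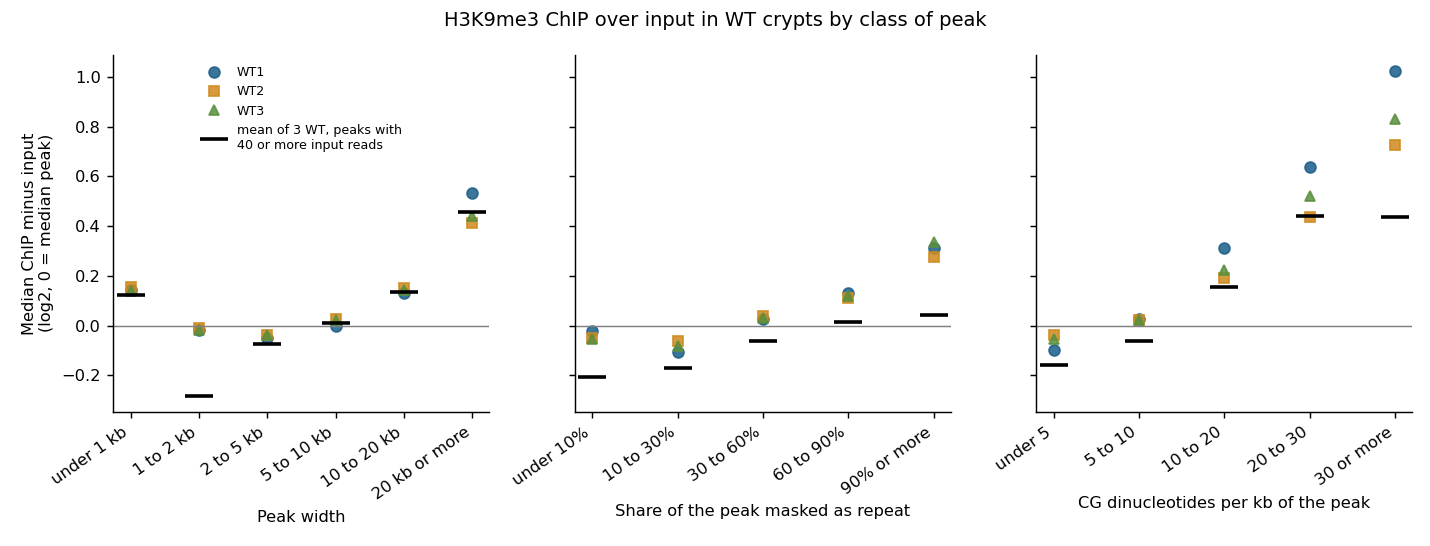
Median log2 ChIP minus input, centred on the median peak, in each WT library by peak width, share of bases masked as repeats and CG dinucleotides per kb; black bars are peaks with at least 40 input reads. All 3 libraries lie highest at 20 kb or more and at 30 or more CG per kb, where WT1 lies above WT2 and WT3.

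Coverage by peaks and level over input were distributed differently along the chromosomes. Of 2737 windows of 1 Mb, 308 had at least 50% of their bases in peaks. These windows held 41.0% of all peaks but 12.2% of the higher ones, and the median of their window medians was -0.07. They were gene-poor, with a median of 1 protein-coding gene start. The 1404 windows with under 5% of bases in peaks had a median of 8 gene starts, and 14.3% of their peaks were higher.

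The window with the greatest coverage, chr7:36000001-37000000, holds the start of Tshz3, a developmental zinc finger factor, and had 94.1% of its bases in peaks, 35 of 111 of them higher. Next came chr15:87000001-88000000 with Fam19a5 (92.4%), where 19 of 137 were higher. A window around placental cathepsin genes such as Ctsj and Ctsq, chr13:61000001-62000000, had 80.4% of its bases in peaks and 25 of 255 higher. The window chr16:7000001-8000000, without a gene start, had 80.3% of its bases in peaks and 1 of 254 higher. Window medians of the 10 most covered windows ran from -0.07 to 0.38.

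A stretch of chromosome 12 and the start of chromosome Y held many higher peaks. The counts below stand beside 3.85% of all peaks higher, and 4.79% of all peaks with at least 40 input reads. On chromosome 12 between 18 and 25 Mb, 469 of 1219 peaks were higher (38.5%), with library medians of 1.14 in WT1, 0.88 in WT2 and 1.02 in WT3. The median peak there had 10 input reads, and among those with at least 40 input reads 116 of 150 were higher. In the first 6 Mb of chromosome Y 301 of 915 peaks were higher (32.9%), and 37 of 41 with at least 40 input reads. Both stretches were singled out after their values were seen. Windows with at least 3 starts of zinc finger genes had 477 of 2567 peaks higher (18.6%), 305 of 952 at 40 or more input reads, and library medians of 0.38, 0.31 and 0.33 in WT1 to WT3.

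**Figure D2:**
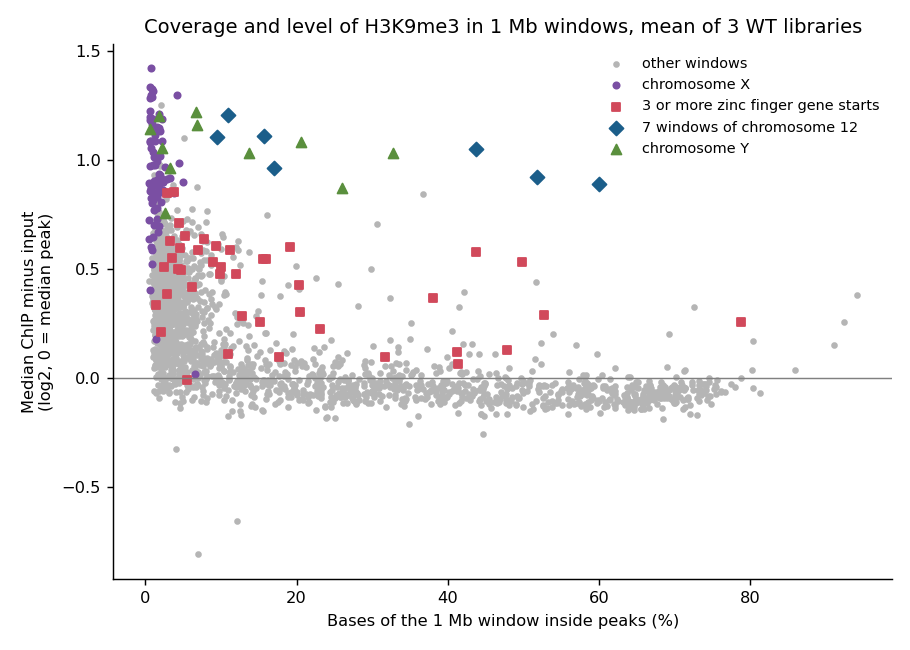
Share of bases inside peaks (x axis, %) against the median centred level (y axis, log2) in 1 Mb windows with at least 10 peaks, mean of 3 WT libraries. Densely covered windows lie close to 0, and windows of chromosome 12 from 18 to 25 Mb and of chromosome Y lie near 1.

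The 10 highest peaks near a named gene were chosen from higher peaks that were at least 2-fold above the median peak in every WT library and had at least 10 input reads. The highest overlapped D10Wsu102e (chr10:83471401-83473800), with 119, 79 and 94 reads in WT1 to WT3 and 12 in the input. Its level was 2.79 ± 0.22 (SD, n = 3), and 98.7% of its bases were masked as repeats. The peak in Camk2b, which encodes a subunit of a calcium-dependent kinase (chr11:6006151-6010950), had 133, 203 and 239 reads against 30 in the input. WT1 lay below the other libraries there, at 1.87 against 2.70 and 2.68.

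Zinc finger genes supplied 3 of the 10. Zfp986 (chr4:145887301-145889550) had 111, 96 and 124 reads against 18 in the input and a level of 2.39 ± 0.08. Zfp971 stood at 2.02 ± 0.15 and Zfp640 at 1.98 ± 0.08. The remaining peaks lay in or near Chd1, a chromatin remodeler, at 2.40 ± 0.19, Uba1y-ps2 at 2.15 ± 0.04, Tgfbr3, a co-receptor for TGF-beta, at 2.11 ± 0.14, Ascc2 at 2.11 ± 0.50 and Rlf at 1.96 ± 0.24.

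**Figure D3:**
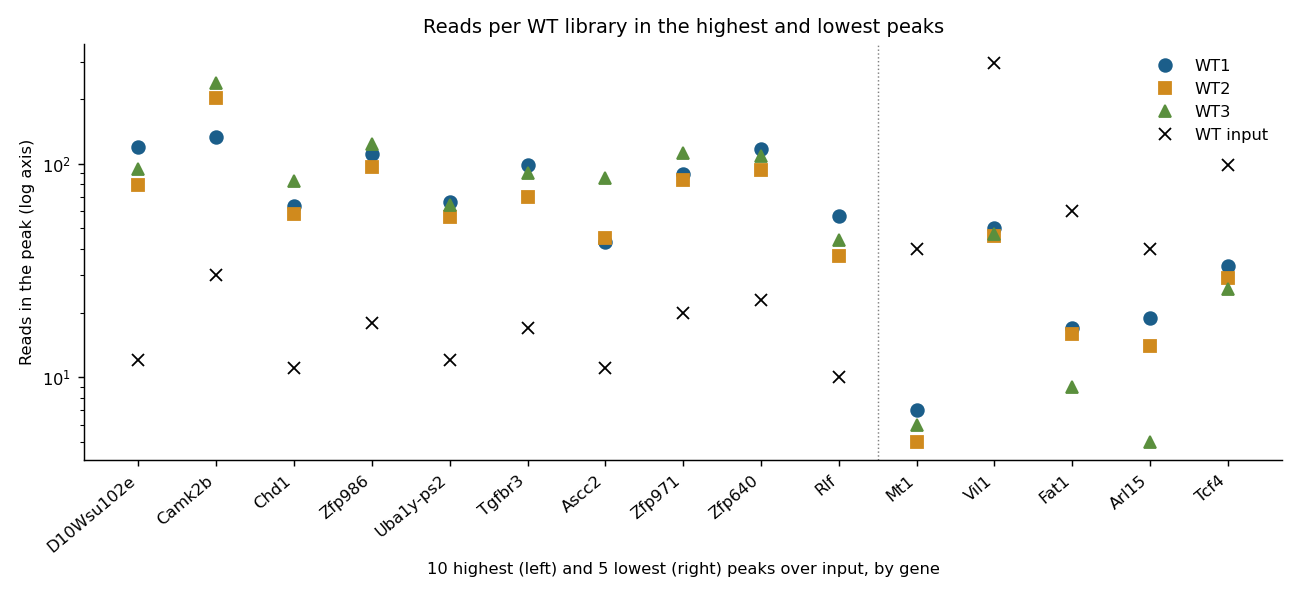
Reads per peak (log axis) in WT1, WT2, WT3 and the WT input for the 10 highest and 5 lowest peaks over input that lie near a named gene. The peaks were chosen by these values. The WT libraries lie farthest apart in Arl15, with 19, 14 and 5 reads.

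Zinc finger genes, most of which encode DNA-binding repressors, are a known target of the mark. Of 420 Zfp and Zscan genes, 265 had a peak within 5 kb (63.1%) and 170 had a higher peak (40.5%). Among 21938 protein-coding genes these shares were 36.4% and 9.53%. Of the 1016 peaks near zinc finger genes 240 were higher (23.6%) and 0 lower, with library medians of 0.31 in WT1, 0.24 in WT2 and 0.24 in WT3. In those with at least 40 input reads 37.2% were higher, against 4.79% of all peaks at that depth.

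The zinc finger peak with the smallest p spanned 23850 bp over Zfp873 (chr10:82049401-82073250), whose sequence is shown above. It had 2058, 1749 and 2098 reads in WT1 to WT3 and 510 in the input. Its level was 1.70 ± 0.05 with an adjusted p of 7.1e-19 (limma). WT2 and WT3 had the same level there, 1.73, because the deposited values were matched by rank between libraries, which narrows the spread. The list members with most bases covered were long genes outside that pattern. Zfp804b had 172 peaks over 301 kb and 1 of them higher, and Zfp536 had 55 peaks with 3 higher.

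Within zinc finger genes the peaks lay towards the 3' end. In the 350 such genes of 5 to 50 kb, 3.75% of bases were in peaks in the first 10% of the gene and 36.1% in the last 10%. The last 20% of the gene was more covered than the first 20% in 148 genes, and less covered in 23. Among 12441 other protein-coding genes of that length, coverage was 2.40% in the first 10% and 4.09% in the last 10%. In most KRAB zinc finger genes the last exon encodes the array of fingers. The start of the gene lay inside a peak in 16 of 420 zinc finger genes (3.81%) and in 3.52% of all protein-coding genes.

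**Figure D4:**
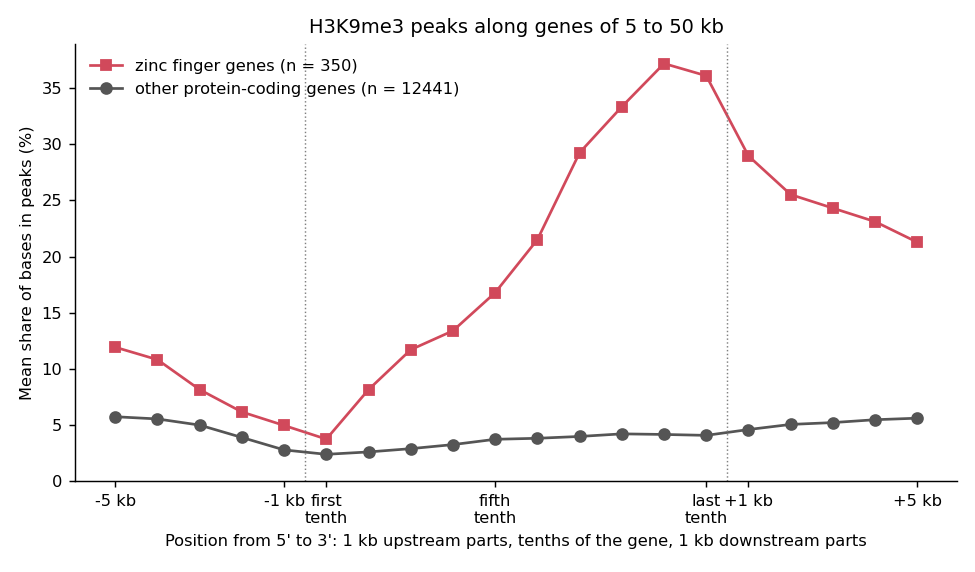
Mean share of bases inside peaks (y axis, %) from 5 kb upstream to 5 kb downstream of genes of 5 to 50 kb, in steps of 10% of the gene and 1 kb of the flanks. Zinc finger genes climb from 3.75% in the first step of the gene to 36.1% in the last, and other genes stay under 6%.

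Receptor families of the sensory system are read here against 3.85% of all peaks higher, and 4.79% at 40 or more input reads. Of protein-coding genes 36.4% had a peak and 9.53% had a higher peak. Of 1093 olfactory receptor genes, 69.0% had a peak, and 47 of 2511 peaks were higher (1.87%), with a median of -0.047 that turned to 0.030 when levels were centred on the mode of all peaks. At 40 or more input reads 31 of 978 were higher. Vomeronasal receptors had 40 higher of 1161 (3.45%), a share near that of all peaks. The 36 long neuronal genes, which code for adhesion molecules, channels and other synaptic proteins, all had peaks, with 32 higher of 9522 (0.336%), so that 22 of the 36 genes had a higher peak (61.1%) among their many. Lrp1b, a giant lipoprotein receptor and 2058 kb long, had 670 peaks over 1283 kb, 3 higher and 1 lower. Library medians of the long neuronal genes were -0.09, -0.06 and -0.07, and at 40 or more input reads the median was -0.15, beside -0.09 for all peaks at that depth.

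Families of metabolism and immunity had these counts, beside 3.85% of all peaks higher and 9.53% of protein-coding genes with a higher peak. Detoxifying enzymes of the cytochrome P450, Ugt, Gst, Sult and Ces families had 29 higher of 233 peaks (12.4%), led by Ugt1a10, a glucuronosyltransferase, at 1.32 ± 0.09. Solute carriers had 44 higher of 451 (9.76%), and Slc22a16, a carnitine transporter, had 317, 195 and 268 reads in WT1 to WT3 and 80 in the input. Toll-like and NOD-like receptors and Ifi genes had 15 higher of 167 (8.98%), among them Nlrp1b, an inflammasome sensor, at 1.40 ± 0.07. By gene, 18.5% of detoxifying enzymes, 10.2% of solute carriers and 18.8% of these sensors had a higher peak. Correction for GC content took the medians of their peaks to 0.24, 0.004 and 0.15, from means of library medians of 0.33, 0.15 and 0.22. Clustered protocadherins, which give neurons surface identities, had 9 higher of 100, and since these genes overlap, 32 of 57 had a higher peak (56.1%). Developmental factors such as Hox, Pax and Sox genes had a peak in 15.8% of 139 genes, with 6 higher of 216.

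Smaller families gave these counts, beside 3.85% of all peaks higher, and several hold too few peaks for a share to be read. Natural killer lectin receptors had 5 higher of 47 peaks, lineage-specific secreted families 14 of 550, taste receptors 1 of 29, the Rhox, Mage, Xlr and Ssx families, which are mostly X-linked, 2 of 22, and V segments of antigen receptors 11 of 544. Paneth defensins, the antimicrobial peptides of the crypt base, had 0 higher of 11 peaks. Of 76 ribosomal protein genes 6 had a peak (7.89%), beside 36.4% of protein-coding genes, and the 2 higher peaks of these genes both lay near Rpl39l, the one with the smaller p at 1.83 ± 0.10.

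**Figure D5:**
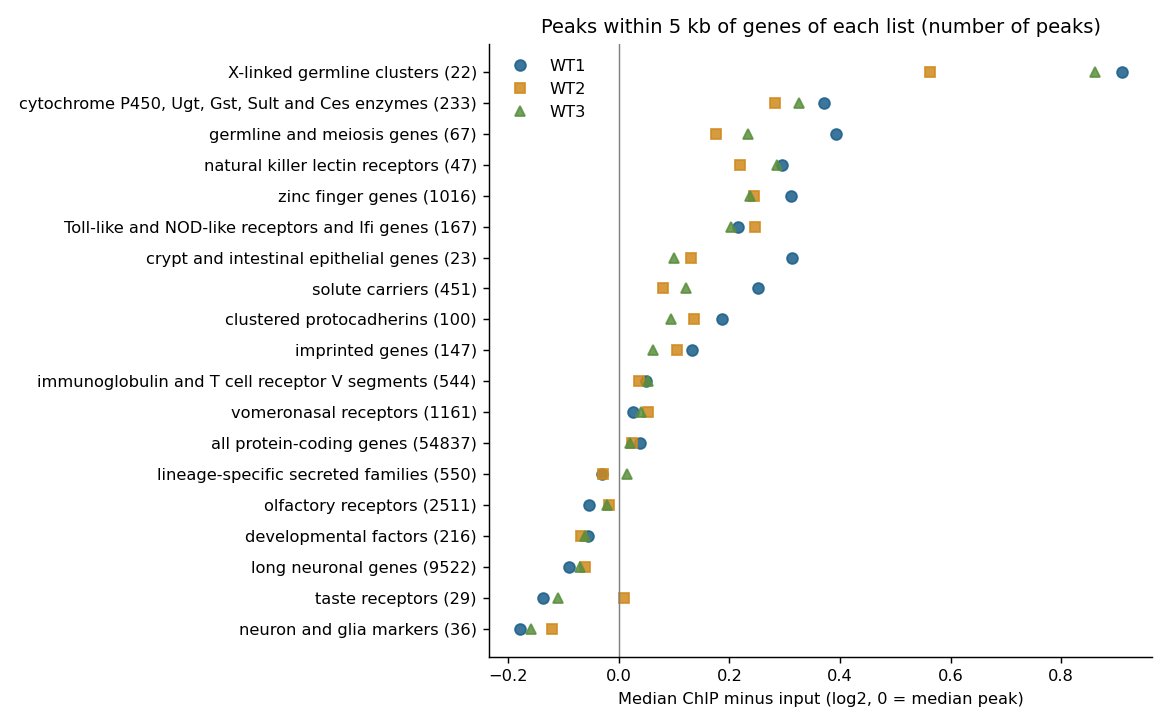
Median centred level (x axis, log2) of the peaks within 5 kb of each gene list in WT1, WT2 and WT3, for lists with at least 20 peaks, the number of peaks in brackets. Zinc finger genes lie between 0.24 and 0.31, and long neuronal genes between -0.09 and -0.06.

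Imprinted genes had peaks in 37 of 45 cases (82.2%), beside 36.4% of protein-coding genes, and of their 147 peaks 6 were higher (4.08%), beside 3.85% of all peaks. At 40 or more input reads 6 of 61 were higher (9.84%), beside 4.79% of all peaks, and 17.8% of the genes had a higher peak, beside 9.53% of protein-coding genes. The mean of library medians was 0.10, and correction for GC content took the median to -0.09. Airn, the noncoding RNA at the Igf2r locus, had the smallest p, at 0.83 ± 0.03. The other imprinted and germline genes named here were picked after their values were seen. Mest, a hydrolase gene expressed from the paternal allele, had 273, 180 and 200 reads in WT1 to WT3 and 93 in the input over chr6:30734701-30740100, which gives 0.98 ± 0.23. This peak, part of which is printed above, holds 12 matches to TGCCGC. The peak shared by Nespas and Gnas stood at 0.85 ± 0.18, that of Commd1 and Zrsr1 at 0.99 ± 0.13, that of Rasgrf1 at 0.68 ± 0.04 and that of Meg3, a maternally expressed noncoding RNA, at 0.65 ± 0.14. A peak on the 5' side of H19, at 0.26 ± 0.30, and a peak in Kcnq1ot1, at 0.33 ± 0.36, did not pass the test. Correction for GC content lowered Mest to 0.53, Nespas and Gnas to 0.41 and Meg3 to 0.20, and it turned H19 to -0.18 and Kcnq1ot1 to -0.11. Commd1 and Zrsr1 stood at 0.90, Rasgrf1 at 0.72 and Airn at 0.67 after the correction. At a locus where 1 allele carries the mark, its level is an average over both.

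Genes of the germline and meiosis, which are normally restricted to germ cells, had 11 higher of 67 peaks (16.4%), beside 3.85% of all peaks. Their mean of library medians was 0.27, and correction for GC content took the median to 0.05. Tdrd9, a helicase of the piRNA pathway, had 358, 238 and 316 reads against 80 in the input, a level of 1.67 ± 0.15. D1Pas1, an autosomal relative of Ddx3y, stood at 1.42 ± 0.22, Meioc, which sustains meiotic entry, at 1.26 ± 0.16, and Ddx4, the germ cell helicase Vasa, at 1.19 ± 0.36. Corrected for GC content, Meioc stood at 0.82 and Ddx4 at 0.74. In 18 of 50 germline genes the start of the gene lay inside a peak (36.0%), and among imprinted genes in 16 of 45 (35.6%), against 3.52% of all protein-coding genes. The share was 80.7% in clustered protocadherins, 22.2% in long neuronal genes and 18.8% in olfactory receptors.

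Of 33 crypt and epithelial genes 8 had a peak (24.2%) and 2 had a higher peak (6.06%), beside 36.4% and 9.53% of protein-coding genes. Of their 23 peaks 2 were higher (8.70%), beside 3.85% of all peaks. These 2 lay on the 5' side of Lyz1, a Paneth cell lysozyme, at 0.86 ± 0.06, and inside Lgr5, a receptor of crypt stem cells, at 0.71 ± 0.14. Of 29 genes of the H3K9 methylation machinery 9 had a peak (31.0%), with 5 higher of 17: near Cbx3, which encodes an HP1 protein, at 1.20 ± 0.11, Zfp809, a KRAB zinc finger gene, at 1.03 ± 0.02, Fam208a at 0.97 ± 0.09, Atf7ip at 0.78 ± 0.16 and Morc2a at 0.63 ± 0.11. Markers of other cell types had peaks in 3 of 5 immune, 1 of 3 endothelial, 1 of 5 fibroblast and muscle and 2 of 4 neuron and glia genes. The neuron and glia genes had 36 peaks with 1 higher and a mean of library medians of -0.15. The higher one was near Tubb3, a neuronal tubulin, at 1.78 ± 0.40, and the other 35 were near Elavl4, an RNA-binding protein gene of neurons, with 0 higher.

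The 5 lowest peaks near a named gene lay in Mt1, Vil1, Fat1, Arl15 and Tcf4. Mt1, which encodes a metallothionein, had 7, 5 and 6 reads in WT1 to WT3 and 40 in the input, a level of -3.04 ± 0.14. Vil1, the villin gene of the brush border, had 50, 46 and 47 reads against 296, a level of -2.85 ± 0.10. Input density was ordinary in both, with 26.7 reads per kb at Mt1 and 21.9 at Vil1 against a median of 21.3 over all peaks. The Cre used for the KO is driven by the villin promoter, and peaks were called on both genotypes. Its part in the call of the Vil1 peak was not tested. Fat1, a giant cadherin, stood at -2.40 ± 0.65, and the lowest peaks of Arl15 and Tcf4 at -2.10 ± 1.12 and -1.98 ± 0.23. The Mt1 and Arl15 peaks no longer passed when only peaks with at least 40 input reads were tested.

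Of the 156 lower peaks, 92 had no gene within 5 kb, 14 lay in Arl15 and 12 in Tcf4. WT3 was the lowest library in both genes. A peak called on both genotypes can owe its call to KO reads, and a low WT level is then built into the choice. The study reports a gain of H3K9me3 in KO within Tcf4, Fat1 and Tiam1. The part of the KO libraries in the call of the lower peaks was not tested. The 50 peaks of Arl15, a small GTPase gene, had library medians of -0.45 in WT1, -0.59 in WT2 and -1.54 in WT3. Those of Tcf4, a basic helix-loop-helix factor, were -0.71, -0.91 and -1.27. The widest peak of Arl15 (chr13:113867551-113932650) had 2943, 1958 and 1140 reads against 1354, so that WT3 alone lay below the median peak, and its mean of 0.22 did not pass the test. The widest peak inside Tiam1, a Rac activator, had 4755, 3277 and 3042 reads against 1392, with WT3 again the lowest, and passed at 1.13 ± 0.30.

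The sex chromosomes had few peaks, and those were high. Their counts of higher peaks stand beside 3.85% of all peaks, and 4.79% of all peaks with at least 40 input reads. Peaks covered 0.893% of X and 1.30% of Y, against 7.92% to 21.4% of single autosomes. On X 422 of 2526 peaks were higher (16.7%), with library medians near 1 and a mean of 0.98 ± 0.03. The median X peak had 6 input reads and 13.3 input reads per kb, against 21.5 per kb on autosomes, and 15 of the 28 X peaks with at least 40 input reads were higher. On Y 334 of 1064 peaks were higher (31.4%), and 42 of 51 with at least 40 input reads. The mice were males, so X and Y were each present in 1 copy per cell, unlike autosomes. The part of copy number and input depth in these levels was not tested.

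Dimethylation of the same residue (H3K9me2), measured in the same study with another antibody, gave a readout that the choice of peaks did not use. Its 47065 regions covered 28.3% of the genome. Of all H3K9me3 peaks 64.9% lay at least 50% inside an H3K9me2 region. The share was 13.2% for the 8173 higher peaks. At 40 or more input reads it was 13.2% for higher peaks and 70.4% for peaks called neither higher nor lower. Near zinc finger genes it was 36.1%, near germline genes 20.9%, near olfactory receptors 73.0% and near long neuronal genes 75.8%. H3K9me2 regions were also called on WT and KO libraries together.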

How the data were processed

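ChIP-seq of WT small intestinal crypts was analysed in 3 H3K9me3 libraries and 1 input. According to the methods of the study, the authors trimmed reads with Trim Galore 0.4.4, mapped them to GRCm38 with Bowtie2 2.3.2, filtered on mapping quality, removed duplicates and called peaks with MACS in SeqMonk. Filtering on mapping quality removes reads from repeats that cannot be placed. The H3K9me3 values deposited by the authors are log2 read counts per peak, with distributions matched over the 6 ChIP libraries and not in the input. The H3K9me2 signal deposited by the authors is the mean read count of the peaks in a region. Tables of the authors' own edgeR comparison, with adjusted p-values, were not used.

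Each peak was tested with limma 3.58.1 (R 4.3.3, trend, two-sided) after the input was shifted by the median difference. On simulated data over 212313 peaks the fit recovered 6% of 2-fold, 42% of 4-fold, 64% of 8-fold and 64% of 16-fold changes, with 6 false calls. The simulated input varied like the simulated ChIP libraries, so these false calls do not measure the risk from an input that varies more. Read counts were recovered from ranks of the deposited values, with extrapolation in at least 1 WT library in 0.438% of peaks. WT replicates differed by more than counting error (chi-square per degree of freedom 1.21 to 1.32). Genes came from GENCODE M21. The study describes its ChIP-seq replicates as biological, and p-values measure the spread between the 3 WT libraries after their distributions were matched. Matching gives peaks of equal rank an equal value, as in the Pisd-ps1 peak, at 0.21 in all 3 libraries. The SD and p of peaks with many reads can therefore understate the spread between mice.

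Peaks, lists and tests were chosen with earlier results of these data known. Named peaks were the 10 highest and 5 lowest with a named gene, the widest, the leading members of each list, the most covered windows, and members of the crypt and machinery lists with a peak. The Mest sequence replaced that of the leading imprinted peak, and the sequence of the highest peak was left out, both after values were seen.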

Additional observations from a re-analysis of the deposited data

How the results depend on the processing

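The number of calls depended on how the single input was treated. The 8173 higher and 156 lower peaks became 1236 and 4 without the trend in limma, and 38890 and 25938 when the input was taken as free of error. With voom on recovered reads 4056 were higher. With at least 40 input reads 5144 were higher and 53 lower, with at least 10 input reads 90 were lower, and with the centre at the mode 68 were lower. At an adjusted p under 0.01 there were 5301 and 27, and with a 2-fold difference in every library 3733 and 12. Leaving out each WT library in turn gave 6480 to 8756 higher and 188 to 580 lower peaks, and it was WT2 whose absence gave 580.

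The median over peaks of the 3-library mean was 0.25 for the zinc finger list, -0.047 for olfactory receptors, -0.089 for long neuronal genes and 0.16 for peaks of at least 10 kb. The centre at the mode gave 0.33, 0.030, -0.012 and 0.24, so olfactory receptors turned positive. With GC correction they were 0.19, -0.016, -0.074 and 0.11. Keeping peaks with at least 40 input reads and centring on their own median gave 0.41 for zinc finger genes, -0.0625 for long neuronal genes and 0.26 for wide peaks, and at least 10, likewise re-centred, gave -0.071 for long neuronal genes and 0.20 for wide peaks. Weighting by width gave 0.59 for zinc finger genes and 0.21 for wide peaks, the deposited gene assignment 0.19 for zinc finger genes, and recovered reads scaled to depth 0.19 and centring on the deepest peaks 0.17 for wide peaks. Without 1 WT library the medians ran from 0.22 to 0.26 (zinc finger), -0.057 to -0.042 (olfactory), -0.094 to -0.082 (neuronal) and 0.16 to 0.17 (wide). The cause was not tested.

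Of 531 values of 46 named peaks, 493 stayed on their side of the threshold, 36 no longer passed, 25 of them without the trend, 1 passed anew (Arl15 without WT3, at 0.61) and 1 reversed (Pisd-ps1, to -0.081 with GC correction). No paired analysis was possible because there is only 1 WT input.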

Other observations

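Some of the highest levels lay in peaks with no gene within 5 kb. The highest of these with at least 10 input reads, chr3:94214551-94218450, had 191, 147 and 187 reads in WT1 to WT3 and 17 in the input, a level of 3.13 ± 0.08 (SD, n = 3). A second peak on chromosome 3, chr3:94141201-94145400, had 202, 142 and 212 reads against 25 and stood at 2.65 ± 0.18. The next 3 lay on chromosome 7 at 2.55 ± 0.22, on chromosome 12 at 2.47 ± 0.20 and on chromosome 13 at 2.43 ± 0.26. Between 87% and 99% of the bases of these 5 peaks were masked as repeats.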
